A study of Mus musculus with 12 samples.

Results

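The epidermal growth factor (EGF) family comprises secreted ligands and the receptor tyrosine kinases they activate. Of the 9 genes chosen here by name, 6 encode ligands (Ereg, Areg, Btc, Hbegf, Tgfa and Egf) and 3 encode receptors (Egfr, Erbb2 and Erbb3). The platform annotation gave a probe set to 7 of these 9 genes, with 12 probe sets in all among the 12488 of the array. Areg and Erbb2 had no probe set named for them in the annotation used here and were not analysed. The members were taken by symbol, with earlier results of these data known.

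RNA of intestinal tumors and of normal intestine came from male Min/+ mice aged 91 days, which carry a mutant allele of the tumor suppressor Apc and develop intestinal adenomas. Each sample was hybridised to 1 Affymetrix MG_U74Av2 array, a short-oligonucleotide array read in groups of probes called probe sets, so that 6 tumor and 6 normal arrays were compared. Within each tissue, 3 numbered diets were each represented by 1 Dnmt+/- and 1 Dnmt+/+ sample, heterozygous and wild type for a DNA methyltransferase gene. All 12 arrays therefore carry the Apc mutation, and the normal tissue is that of tumor-bearing animals. The labels give neither the composition of the diets nor the strain background, and do not say whether RNA was pooled, whether separate animals were used or from which segment of the intestine the tissue came. A sample code shared by title links each tumor array to a normal array of the same diet and genotype. P-values measure the spread between these arrays, which may be partly technical.

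The ligands are made as precursors anchored in the cell membrane and are released by ADAM metalloproteases, after which they bind EGFR or other ErbB receptors on the same or neighbouring cells. Receptor dimers then signal through adaptor proteins, RAS and the ERK kinases, and ERK induces early response genes together with inhibitors of the pathway. In the intestine, EGF receptor signalling maintains proliferation in the crypts, and mice with a weakened Egfr kinase are known to develop fewer adenomas on the Min background.

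Promoter sequences are given for 3 members: Tgfa and Egfr, because they are the ligand and the receptor that have both a reading in these tissues and an entry in the promoter table, and Btc, because it is the other measured ligand of the chromosome 5 cluster that holds Ereg, with Areg between them. Each covers 250 bases before to 50 bases after the annotated start, from RefSeq on build GRCm38.p6, printed 5′ to 3′ on the gene's strand. The promoter table held no entry for Ereg, Hbegf or Erbb3. Capitals mark a cyclic-AMP response core (CRE, TGACG on either strand). The Btc window is at chr5:91402945-91403244 on the minus strand, the Tgfa window at chr6:86194972-86195271 on the plus strand and the Egfr window at chr11:16751953-16752252 on the plus strand.
Btc: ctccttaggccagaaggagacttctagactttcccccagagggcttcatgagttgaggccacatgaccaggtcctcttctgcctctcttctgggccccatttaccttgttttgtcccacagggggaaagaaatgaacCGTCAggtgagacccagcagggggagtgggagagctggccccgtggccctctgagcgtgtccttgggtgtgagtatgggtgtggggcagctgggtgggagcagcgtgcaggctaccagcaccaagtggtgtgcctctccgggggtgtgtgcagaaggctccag
Tgfa: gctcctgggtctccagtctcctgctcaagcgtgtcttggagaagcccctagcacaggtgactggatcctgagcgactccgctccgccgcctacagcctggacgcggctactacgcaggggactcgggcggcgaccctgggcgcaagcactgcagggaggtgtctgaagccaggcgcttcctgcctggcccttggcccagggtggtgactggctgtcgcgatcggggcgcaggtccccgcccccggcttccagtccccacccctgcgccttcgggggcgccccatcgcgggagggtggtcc
Egfr: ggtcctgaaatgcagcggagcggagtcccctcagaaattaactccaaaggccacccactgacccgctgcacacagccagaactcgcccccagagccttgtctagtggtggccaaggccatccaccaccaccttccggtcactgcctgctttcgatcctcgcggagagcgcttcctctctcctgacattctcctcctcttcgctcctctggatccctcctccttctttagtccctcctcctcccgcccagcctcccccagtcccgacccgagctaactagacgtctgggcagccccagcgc
Both strands were searched for AP-1 (TGANTCA), Tcf/Lef (CTTTGA), E-box (CANNTG) and CRE letters. The Btc promoter held 4 E-boxes and 1 CRE core, which overlaps an E-box (CAGGTG), the Tgfa promoter held 1 E-box, and the Egfr promoter held none of the 4 motifs. Of 32851 promoters of this length, 72.3% held an E-box, 20.8% a CRE core, 16.0% a Tcf/Lef core and 7.8% an AP-1 motif. The GC content of the 3 windows was 60.3% for Btc, 70.7% for Tgfa and 62.3% for Egfr, against a median of 52.7% over all these promoters. A match describes letters only, and a missing match says nothing of the factor.

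The values are the intensities deposited by the authors, and levels of different probe sets cannot be set against each other. The 4 diet #1 arrays were deposited on another scale, with array means between 306.4 and 402.7 and 40.9% to 46% of all values exactly 50, whereas the 8 arrays of diets #2 and #3 had a mean of 1000 and no such floor. After quantile normalization, values under 44.8 were raised to that analysis floor. Differences between diet #1 and the other diets therefore cannot be told apart from this difference in format, and a diet #1 value at 50 is only an upper bound. Epithelial markers were high on every array (5 of 9 higher in tumor, none lower), so both labelled tissues contained epithelium. Exocrine pancreas markers (1 of 12 lower in tumor) summed to 26971 to 40690 normalized units on the tumor arrays and, on normal arrays, to 239787 to 258092 in diet #2 but 33780 to 58473 in the other diets. Zg16 of this list was high on every array, at 14.35 to 14.43 in tumor and 14.41 to 14.58 in normal intestine (log2). It makes up much of the lower sums, which by themselves do not show pancreas RNA. For Dnmt1, the maintenance methyltransferase, the probe sets differed. The tested probe set gave a Dnmt+/- minus Dnmt+/+ difference of -0.91 ± 0.35 (log2, SE, adjusted p = 0.698 by limma). A second probe set, fitted with no filter, gave 0.05 ± 0.17 (SE, adjusted p = 0.951 by limma). Its deposited values in diets #2 and #3 lay between 12.1 and 132.2. Within a tissue in those diets, Dnmt+/- was lower in 4 of 4 comparisons for the first and 2 of 4 for the second. The labels do not say which Dnmt gene was altered.

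Of the 7 measured genes, 5 entered the primary fit, and among these Ereg was the one called higher in tumor. That fit (limma on log2 values with tissue, diet and genotype as terms, p-values adjusted by Benjamini-Hochberg over 6400 features) tested 1 probe set each of 5 members, and 1 of the 5 passed at an adjusted p under 0.05. Over all features 35.2% passed, 18.2% as higher in tumor and 16.9% as lower, so 1 of 5 is no more than the background. The other 7 probe sets lay outside that fit because they were dim or not the brightest of their gene.

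Ereg encodes epiregulin, a ligand of EGFR and ErbB4 that is little expressed in most resting adult tissues. In diet #1 its deposited intensity was 69.6 in the Dnmt+/- tumor and 135.8 in the Dnmt+/+ tumor, against 50 in both normal samples, which is the file's floor. In diet #2 it read 488.5 and 475 in the Dnmt+/- and Dnmt+/+ tumors, against 38.8 and 47 in the matching normal intestine. In diet #3 it read 338.5 and 254.8 in the tumors, against 99.9 and 97.2 in normal intestine. Every tumor value was above its normal partner, and within each diet the lowest tumor value was above the highest normal value. The ratio of deposited values within a pair was smallest in the Dnmt+/- pair of diet #1, at 1.39, where the normal value is a bound, and largest in the Dnmt+/- pair of diet #2, at 12.6.

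On the normalized log2 scale, Ereg averaged 7.97 ± 0.36 in tumor and 5.88 ± 0.45 in normal intestine (SD, n = 6 each). Tumor arrays ranged between 7.49 and 8.39 and normal arrays between 5.48 and 6.46, so the groups did not overlap. The share of all features without overlap is not given here, and 35.2% of features passed for tissue. The limma difference was 2.09 ± 0.218 (SE), with a 95% interval of 1.6 to 2.58, which is 4.26-fold (adjusted p = 0.000134). It was higher in tumor in 6 of 6 pairs and passed with each array left out in turn, with differences between 1.975 and 2.25. Normal values were low, 2 of them at a floor, and the size depended on the processing of low values. With the analysis floor at the 40th percentile the difference was 1.316, with it at the 5th percentile 2.09, and under median scaling 1.541. A second Ereg probe set, 161158_f_at, lay at a floor on all 12 arrays, with at most 24.4 on the arrays of diets #2 and #3, and gives no second reading.

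**Figure D1:**
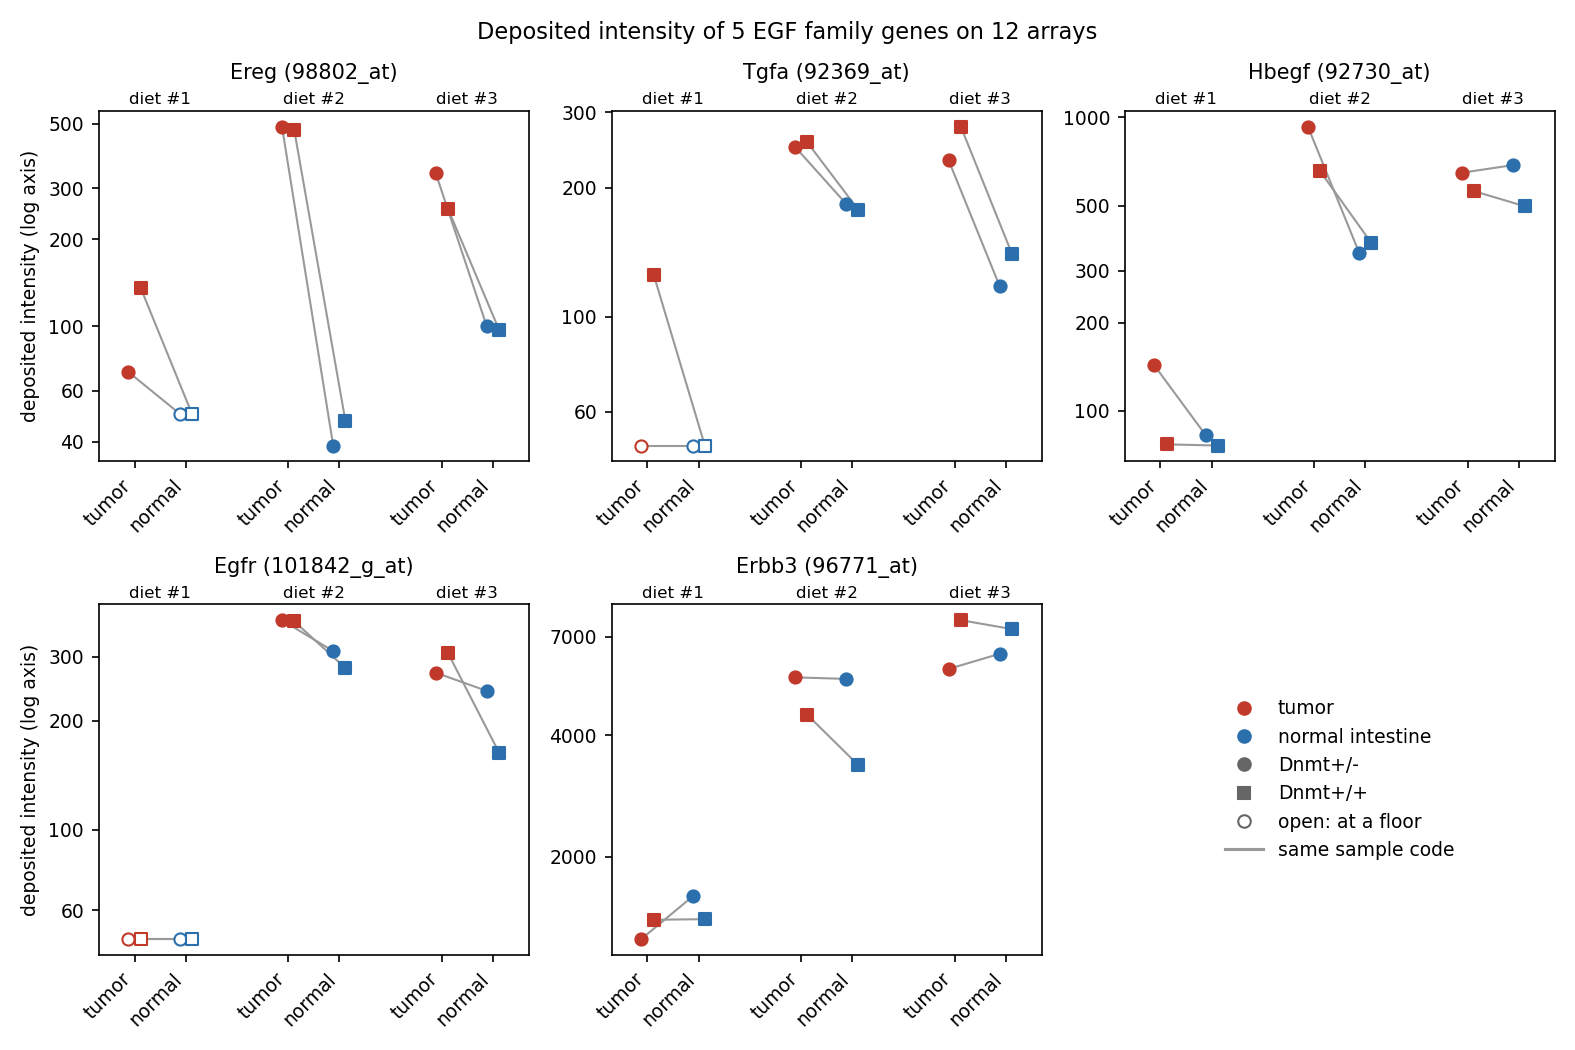
Deposited intensity (log axis, arbitrary units) of the 5 members in the primary fit, by diet and tissue; circles are Dnmt+/- and squares Dnmt+/+, open symbols lie at a floor, and lines join arrays with the same sample code. Ereg is higher in tumor in all 6 pairs, whereas Erbb3 lines run both up and down.

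Fitted within each diet alone, the Ereg difference was 2.721 in diet #2 (adjusted p = 0.00327 by limma, where 22.2% of features passed) and 1.332 in diet #3 (adjusted p = 0.0382, 7.73% passed). In diet #1, where both normal values are bounds at the file's floor, only the deposited ratios of at least 1.39 and 2.72 can be given as sizes, and the fit did not pass (adjusted p = 0.181, with 0% of features past the threshold). The tissue by diet term, which tests whether the difference is unequal among diets and includes those bounds, had an unadjusted p of 0.00535 and did not pass after adjustment (adjusted p = 0.154, against 1.48% of features that passed). With the diet #1 arrays removed, in a fit added once the data had been seen, the same test gave an adjusted p of 0.098, with 0.547% of features past the threshold. It passed with the values as deposited, where 3.22% of features did, and when either the Dnmt+/- or the Dnmt+/+ tumor of diet #1 was left out. Without those tumors 193 and 277 of 6400 features passed, in that order, in place of 95. For Tgfa the same term passed without the Dnmt+/- tumor of diet #1, whose Tgfa value is a bound at the file's floor. Among the normal arrays without the file's floor, the lower Ereg values, 38.8 and 47, were those of the diet #2 arrays, on which the pancreas markers were also high. Without the diet #2 arrays, the Ereg difference was 1.774 with an adjusted p of 0.00709, and without diet #1 it was 2.027 with an adjusted p of 0.00256.

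These are bulk samples, in which fewer cells of a type and less RNA per cell cannot be told apart. Markers of several cell types moved with tissue in the same arrays as Ereg, where 18.2% of all features were called higher in tumor and 16.9% lower. Epithelial markers summed to between 96470 and 100018 normalized units in tumor and between 56815 and 71777 in normal intestine. Goblet cell markers (4 of 7 higher) summed to between 81389 and 94710 in tumor and 54637 and 69834 in normal, and Paneth cell markers (4 of 5 higher) to between 32778 and 47660 in tumor and 16213 and 35707 in normal. Fibroblast and matrix markers (5 of 9 higher, 1 lower) summed to between 12617 and 15120 in tumor and 9760 and 13528 in normal. Mast cell markers (5 of 5 higher) summed to between 8058 and 28861 in tumor and 515 and 941 in normal, with Cpa3, a mast cell protease, at a floor on 5 of 6 normal arrays. Myeloid markers split, with 2 of 4 higher and 2 lower, and summed to between 2239 and 3735 in tumor and 1774 and 2281 in normal. Adipose markers went the other way, with 4 of 5 lower and none higher, and summed to between 966 and 1245 in tumor and 1562 and 2548 in normal, without overlap. Villus enterocyte markers (1 of 5 higher, 2 lower) summed to between 53267 and 80312 in tumor and 52300 and 97845 in normal. Of the smooth muscle markers 1 of 7 was lower, and of the endothelial markers 1 of 5 was higher and 1 lower, with overlapping sums in both lists. The goblet cell marker Retnlb was at a floor on 6 of 6 normal arrays. Their part in the Ereg difference was not tested.

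Tgfa encodes transforming growth factor alpha, an EGFR ligand made by many epithelia. In diet #1 its deposited intensity was 50, the file's floor, in the Dnmt+/- tumor and 125.4 in the Dnmt+/+ tumor, against 50 in both normal samples. In diet #2 it was 249.3 and 255.3 in the Dnmt+/- and Dnmt+/+ tumors, against 183.4 and 177.4 in normal intestine, and in diet #3 it was 231.9 and 277.7 in tumors against 117.6 and 140 in normal intestine. Tumor values were above their normal partners in 5 of 6 pairs, and both samples of the remaining pair lay at the floor. Ratios of deposited values in the diet #2 and #3 pairs lay between 1.36 and 1.98, below every Ereg ratio in those diets.

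The normalized level of Tgfa averaged 7.24 ± 0.85 in tumor and 6.54 ± 0.81 in normal intestine (log2, SD, n = 6 each), with overlapping groups. The limma difference of 0.703 ± 0.32 (SE) had an interval of -0.02 to 1.42 and did not pass (adjusted p = 0.12). Its size rested on the Dnmt+/+ tumor of diet #1, without which it was 0.365 (adjusted p = 0.0931). It did pass under 3 alternatives: median scaling (0.48, adjusted p = 0.041), the values as deposited (0.71, adjusted p = 0.0112), where 13.2% and 21.2% of features passed as higher in tumor, and the higher analysis floor (0.512, adjusted p = 0.0444), where 19.3% did. Under these 3 settings Ereg and Tgfa both passed, while in either direction 37.4% of all features passed under median scaling, 32.6% as deposited and 37.5% with the higher floor. Under the deposited scaling the median feature itself shifted by 0.132, and Tgfa stood 0.58 above that median. Without the diet #1 arrays, 3 of whose 4 values were at the floor, the difference was 0.455 (adjusted p = 0.0709).

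Hbegf encodes heparin-binding EGF-like growth factor, an early response ligand that binds EGFR and ErbB4. Its diet #1 values were 142.9 and 76.9 in the Dnmt+/- and Dnmt+/+ tumors, against 82.8 and 76.2 in normal intestine. In diet #2 they were 929.2 and 654.7 in tumors against 345.9 and 373 in normal intestine, and in diet #3 647.3 and 560.7 in tumors against 687.3 and 497.5 in normal intestine. Tumor stood above normal in both diet #2 pairs, with ratios of 2.69 and 1.76, while in diet #3 the pairs pointed opposite ways, at 0.942 and 1.13. Averages were 8.61 ± 0.71 in tumor and 8.27 ± 0.63 in normal intestine (log2, SD, n = 6 each). After normalization tumor was higher in 4 of 6 pairs, and the limma difference of 0.333 ± 0.197 (interval -0.11 to 0.78, adjusted p = 0.224) did not pass. Without the Dnmt+/- normal array of diet #2 the difference was 0.175, and without the diet #2 arrays 0.089.

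Btc, which encodes betacellulin, a ligand of EGFR and ErbB4, and Egf, the founding ligand of the family, were near the detection limit. The Btc probe set lay at a floor on 11 of 12 arrays. On the arrays of diets #2 and #3 its deposited values were 21.7, 78, 22.2 and 24.1 in tumor, against 32.8, 4.3, 3.7 and 3.3 in normal intestine, so that 1 tumor array rose above the floor. The 2 Egf probe sets lay at a floor on 9 and 10 arrays. For the brighter one, the diet #2 and #3 values were 15, 15, 89 and 30.9 in tumor and 39.3, 118.1, 28.6 and 19.8 in normal intestine, with no order between the tissues. No fold or test is given for these probe sets, under a limit of 8 arrays at a floor that was set after the values were seen.

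Egfr, the receptor shared by all 6 ligands, had 3 probe sets that differed in their readings. The brightest, 101842_g_at, which stood for the gene in the primary fit, was at 50 on all 4 diet #1 arrays. It read 378 and 375.2 in the diet #2 tumors against 310.6 and 278.9 in normal intestine, and 271 and 307.2 in the diet #3 tumors against 241.3 and 163.1 in normal intestine. Deposited tumor values were above their partners in all 4 pairs that lay above the floor, by ratios of 1.22, 1.35, 1.12 and 1.88. After normalization 3 of these pairs were higher in tumor and the Dnmt+/- pair of diet #3 was lower, at -0.07 on the log2 scale. Its normalized level averaged 7.1 ± 1.23 in tumor and 6.97 ± 1.15 in normal intestine (log2, SD, n = 6 each), a spread set by the floor of diet #1. The limma difference of 0.124 ± 0.117 (interval -0.14 to 0.39, adjusted p = 0.445) did not pass. It was 0.026 without the Dnmt+/+ normal array of diet #3 and 0.035 without the Dnmt+/+ tumor of diet #3.

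A dimmer Egfr probe set, 101840_at, showed a larger gap. Its diet #1 values were 101.6 and 138.5 in the Dnmt+/- and Dnmt+/+ tumors, against 50 in both normal samples. In diet #2 it read 166.7 and 194.3 in tumors against 123.2 and 145.3 in normal intestine, and in diet #3 268.3 and 270.9 in tumors against 110.9 and 63.1 in normal intestine. All 6 pairs were higher in tumor, with deposited ratios as low as 1.34 and as high as 4.29. In a fit of every probe set with no filter, chosen after the data were seen, the difference was 1.324 ± 0.356 (SE), with an interval of 0.51 to 2.14, or 2.5-fold (adjusted p = 0.0325 by limma). In that fit 19.5% of 12422 probe sets passed, 10.1% as higher in tumor. The call was not stable: with the sample code as a fixed block the adjusted p was 0.0855, without the diet #1 arrays it was 0.252 with a difference of 0.739, and it passed in 4 of the 12 fits that left out 1 array. Those 4 left out an array of diet #2, while leaving out any array of diet #1 or #3 gave an adjusted p between 0.0561 and 0.0807.

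Deposited ratios of 101840_at within pairs were at least 2.03 and 2.77 in diet #1, where both normal values are bounds at the file's floor, 1.35 and 1.34 in diet #2, and 2.42 and 4.29 in diet #3, each Dnmt+/- pair first. The normalized differences of the pairs above the floor were 0.14 and 0.03 in diet #2 and 1.02 and 1.77 in diet #3. The tissue by diet term passed in the fit of every probe set (adjusted p = 0.0239 by limma, where 2.17% of probe sets passed), but that fit includes the diet #1 bounds. Without the diet #1 arrays it did not (unadjusted p = 0.0337, adjusted p = 0.374, with 0.0805% of probe sets past the threshold). The third probe set, 101841_at, was at 50 on the 4 diet #1 arrays and gave a difference of 0.265 ± 0.141 (SE), which did not pass (adjusted p = 0.256). Which transcripts the 3 probe sets detect was not tested.

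**Figure D2:**
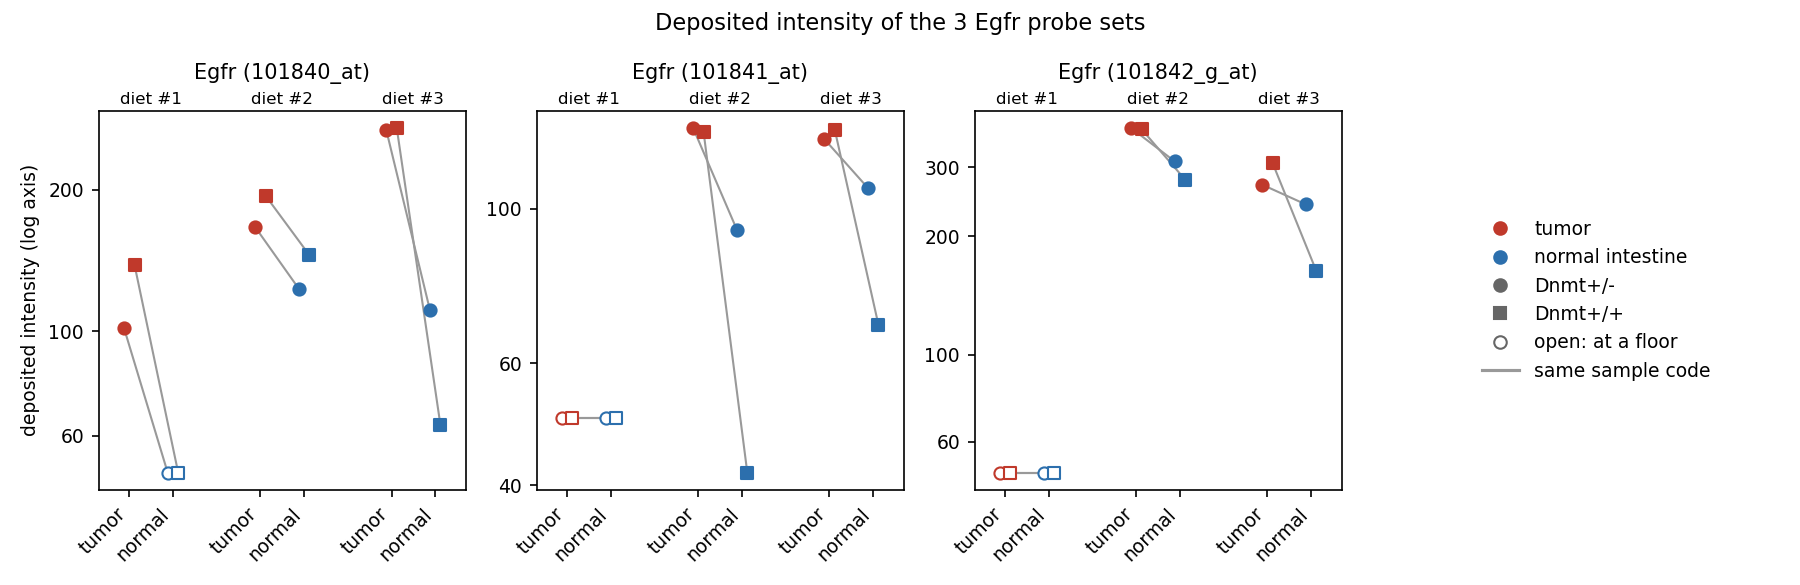
Deposited intensity (log axis, arbitrary units) of the 3 Egfr probe sets by diet and tissue; circles are Dnmt+/- and squares Dnmt+/+, open symbols lie at a floor, and lines join arrays with the same sample code. All 6 pairs of 101840_at are higher in tumor, while 101841_at and 101842_g_at are at 50 on every diet #1 array.

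Erbb3 encodes a receptor with a weak kinase that binds neuregulins and pairs with other ErbB receptors. Its probe set 96771_at read 1253.7 and 1398.8 in the diet #1 tumors against 1597 and 1403.7 in normal intestine. In diet #2 it read 5555.6 and 4488.6 in tumors against 5506.3 and 3368.5 in normal intestine, and in diet #3 5827.4 and 7689.7 in tumors against 6352.9 and 7309.2 in normal intestine. As deposited, both diet #1 tumors lay below both normal samples, and the tissues overlapped in diets #2 and #3. After normalization they overlapped in diet #1 too, with the Dnmt+/- tumor at 11.807 above the Dnmt+/+ normal sample at 11.491 (log2). The averages were 12.01 ± 0.41 in tumor and 11.93 ± 0.39 in normal intestine (log2, SD, n = 6 each), and the difference of 0.081 ± 0.154 (interval -0.27 to 0.43, adjusted p = 0.718 by limma) turned to -0.226 under median scaling. A second Erbb3 probe set, 101776_at, lay at a floor on all 12 arrays.

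The genotype comparison asked whether the heterozygous Dnmt state was accompanied by other levels of these genes. None of the 5 members passed (limma, with codes as random blocks), and over all features 0.0469% passed. Hbegf had the smallest p, unadjusted 0.0368 and adjusted 0.698. Its Dnmt+/- minus Dnmt+/+ difference was 0.426, with an interval of 0.03 to 0.82, and it was higher in Dnmt+/- in 5 of 6 comparisons within a tissue and diet. The exception was diet #2 normal intestine, with 345.9 in Dnmt+/- and 373 in Dnmt+/+. For Tgfa the difference was -0.496 (interval -1.14 to 0.15, adjusted p = 0.727). After normalization Tgfa was lower in Dnmt+/- in 4 of 6 comparisons, with both samples at the floor in another. In diet #2 tumor the samples were nearly equal (7.437 and 7.441, log2). Diet #2 normal intestine, counted as lower at -0.02, read higher in Dnmt+/- as deposited (183.4 against 177.4). The Tgfa difference rests in part on diet #1 tumor, where the Dnmt+/- array was at the floor and the Dnmt+/+ array read 125.4.

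Ereg differed between genotypes by -0.05 with an interval of -0.47 to 0.37 (adjusted p = 0.964), and its sign turned under median scaling. The intervals of Egfr and Erbb3, with differences of 0.094 (adjusted p = 0.833) and 0.213 (adjusted p = 0.748), likewise included 0. The tumor minus normal difference did not vary detectably with genotype: the tissue by genotype term passed in 0 of 5 members, and in 0% of all features, where 139 features and none of the 5 members had an unadjusted p under 0.05. For Ereg that term was -0.016, with a 95% interval of -1.09 to 1.05.

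The diet comparison within 1 file format sets diet #3 against diet #2, and 0 of 5 members passed where 9.28% of features did. Egfr (101842_g_at) differed by -0.434, with an interval of -0.71 to -0.15, and missed the threshold (unadjusted p = 0.00641, adjusted p = 0.06 by limma). It passed without the Dnmt+/+ normal array of diet #1 (adjusted p = 0.0462), the Dnmt+/+ tumor of diet #1 (0.0379) or the Dnmt+/+ tumor of diet #3 (0.0325). In those fits 803, 921 and 434 of 6400 features passed, in that order, in place of 594. The 4 diet #3 values of this Egfr probe set, 271, 307.2, 241.3 and 163.1, all lay below the matching diet #2 values of 378, 375.2, 310.6 and 278.9. The other Egfr probe sets, in the fit of every probe set, had differences of the opposite sign with intervals that included 0: 0.108 (-0.28 to 0.5, adjusted p = 0.866) for 101841_at and 0.024 (-0.96 to 1, adjusted p = 1) for 101840_at. Erbb3 differed by 0.523 (interval 0.12 to 0.93, unadjusted p = 0.0169, adjusted p = 0.102). It passed without the Dnmt+/- tumor of diet #3 (adjusted p = 0.0453), where 624 of 6400 features did. Its diet #3 values of 5827.4, 7689.7, 6352.9 and 7309.2 all lay above the matching diet #2 values of 5555.6, 4488.6, 5506.3 and 3368.5. Differences of Ereg (0.113), Hbegf (0.219) and Tgfa (-0.21) had intervals that included 0. The diet #2 side of all these differences includes the normal arrays on which the pancreas markers were high, whose part was not tested.

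Across all 3 diets, 4 of 5 members passed an F test (Hbegf, Tgfa, Egfr and Erbb3), where 61.9% of features did. With the lowest 60% of probe sets left out, Hbegf and Erbb3 passed, where 66.8% of features did. In diet #2 minus diet #1, 3 members passed against 54.3% of features, and in diet #3 minus diet #1, 4 passed against 55.9%. The largest of these, 2.461 for Egfr in diet #2 minus diet #1, compares 4 values of diet #2 with 4 values at the file's floor. Diet #1 and the file format cannot be told apart in these differences.

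**Figure D3:**
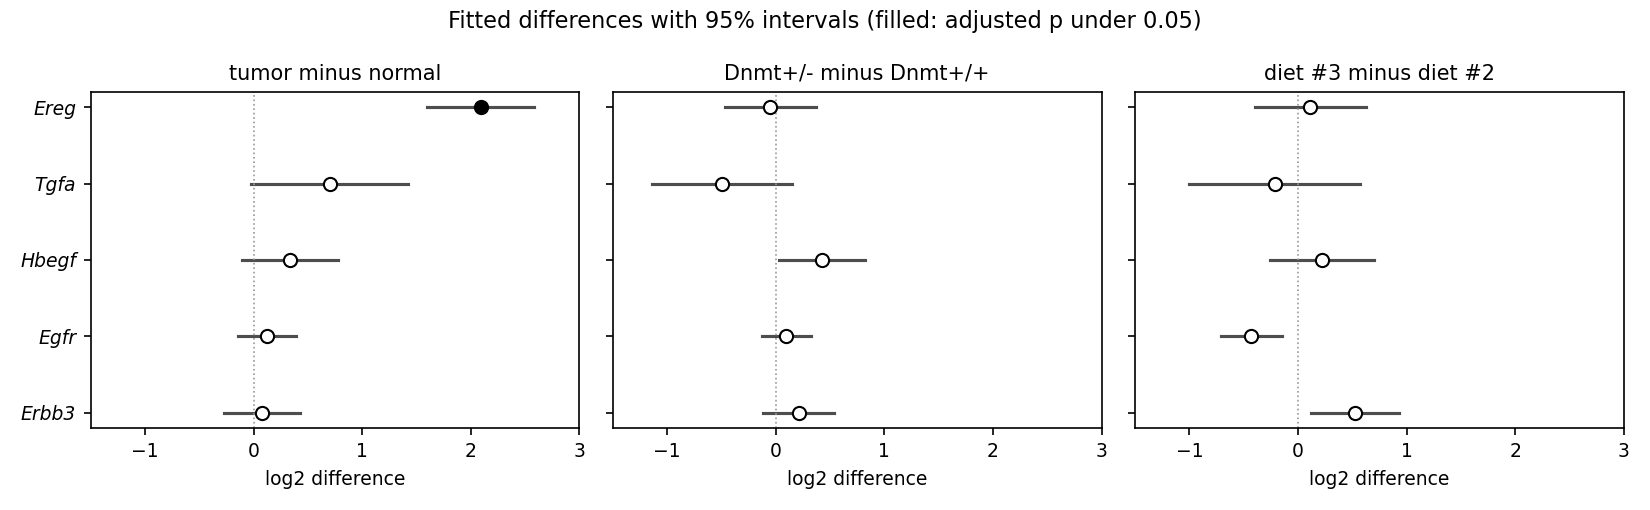
Fitted log2 differences of the 5 members with 95% intervals (bars) for tumor minus normal, Dnmt+/- minus Dnmt+/+ and diet #3 minus diet #2; filled points have an adjusted p under 0.05. Ereg in tumor minus normal, at 2.09, is the filled point, and the intervals of Egfr (probe set 101842_g_at) and Erbb3 for diet #3 minus diet #2 exclude 0 on opposite sides, with both points open.

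Other genes of the pathway were taken from 4 lists by role. The remaining ligands and receptors of the wider family could hardly be read: of 8 listed, 4 had a probe set and none passed the filter on low values. Among them Erbb4, the neuregulin and betacellulin receptor, and Nrg3, a neuregulin, were at a floor on all 12 arrays.

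Of 22 genes for ligand shedding and receptor turnover, 13 were annotated and 9 tested. In tumor 2 of the 9 were higher and none lower, with a median difference of 0.18 beside 0.002 for all features. That count is near the 18.2% of all features called higher. The genes were Adam9 (0.866 ± 0.126 SE, 1.82-fold, adjusted p = 0.000854 by limma) and Adam10 (0.728 ± 0.105 SE, 1.66-fold, adjusted p = 0.000819), both membrane metalloproteases, of which ADAM10 is known to release betacellulin and EGF. Adam17, the main sheddase of epiregulin and transforming growth factor alpha, did not pass the filter on low values. Errfi1, an inhibitor of the EGFR kinase, differed by -0.061 (adjusted p = 0.828).

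Adaptors and kinases showed no common direction. Of 43 listed, 34 were annotated and 23 tested, of which 3 were higher and 1 lower, with a median of -0.1. Both counts are lower shares than the 18.2% and 16.9% over all features. Nras, a RAS GTPase, rose by 0.658 (1.58-fold, adjusted p = 0.000655) and Akt1, a survival kinase, by 0.59 (1.51-fold, adjusted p = 0.00122). Shc1, an adaptor bound by activated receptors, passed narrowly (0.321, adjusted p = 0.0419), lost the call with the sample code as a fixed block (adjusted p = 0.0766), and passed in 2 of 12 fits that left out an array, those without a Dnmt+/- array of diet #1. Sos2, an exchange factor that loads RAS with GTP, fell by 0.679 (1.6-fold lower, adjusted p = 0.00311).

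The last list was drawn up as ERK feedback and response genes, and its members are not particular to that pathway. Of 29 listed, 21 were annotated and 19 tested, and 9 were higher in tumor with none lower, beside 18.2% of all features higher and 16.9% lower. The median difference was 0.53, against 0.002 for all features. Phlda1, an early response gene that is also a marker of intestinal stem cells and adenomas, rose by 2.949 ± 0.11 (SE), or 7.72-fold (adjusted p = 4.83e-07). Plaur, the urokinase receptor, rose by 2.202 ± 0.236 (4.6-fold, adjusted p = 0.000152), with 3 normal arrays at a floor. Ccnd1, the G1 cyclin D1, rose by 1.326 ± 0.11 (2.51-fold, adjusted p = 3.82e-05). Ccnd1, Myc and Plaur of this list are also known as targets of Wnt signalling. Dusp6 (0.11, adjusted p = 0.692) and Spry4 (-0.052, adjusted p = 0.863), feedback inhibitors induced by ERK, did not pass. Of their relatives in this list, Dusp1 was called higher in tumor (0.535, adjusted p = 0.00896 by limma). Dusp2 (-0.577, adjusted p = 0.153) and Spred2 (0.247, adjusted p = 0.346) did not pass. The count of 9 fell to 5 without the diet #2 arrays, where 10.2% of features were higher, and to 0 within diet #1 alone, where no feature passed.

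**Figure D4:**
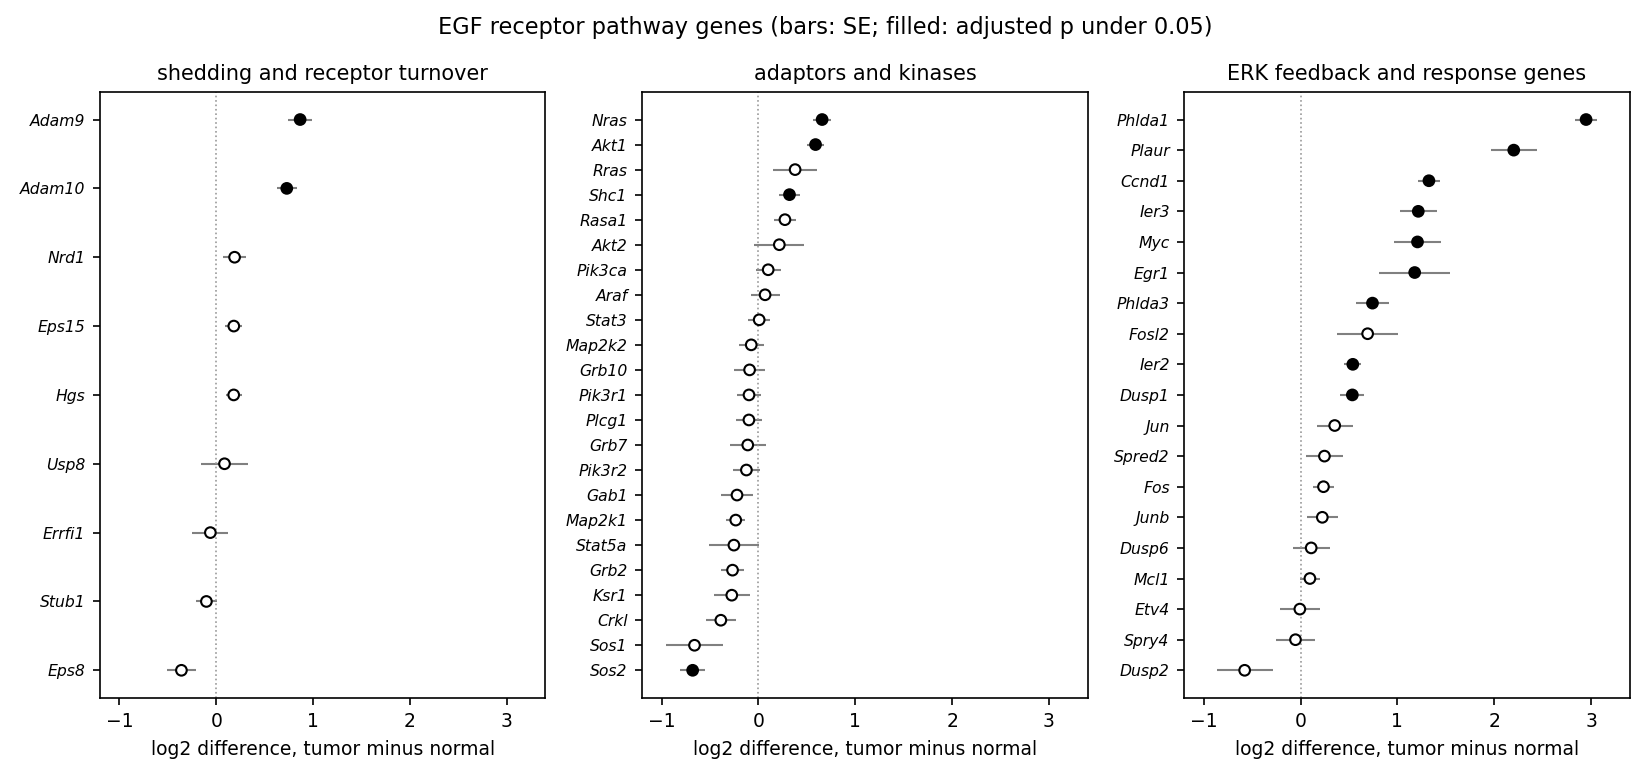
Log2 difference, tumor minus normal, of the tested genes of 3 pathway lists with standard errors (bars); filled points have an adjusted p under 0.05. Among the ERK feedback and response genes 9 of 19 are filled and lie right of 0, Phlda1 farthest at 2.949, against 2 of 9 for shedding and turnover and 3 higher and 1 lower of 23 adaptors and kinases.

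By the correlation of log2 values over the 12 arrays, which share tissue, diet and file format, the genes most like Ereg were Agr2, a secretory-pathway disulfide isomerase of goblet cells (r = 0.983), and Hk2, a hexokinase of glycolysis (r = 0.98). Those differed in tumor by 1.38 and 2.26. Those most like Egfr were Atp2a2 (r = 0.994) and Limk1 (r = 0.992), whose tumor differences were 0.11 and -0.09. The nearest genes of Tgfa were Uggt1 (r = 0.966) and Ppan (r = 0.964), those of Hbegf 1700097N02Rik (r = 0.952) and Adam5 (r = 0.917), and those of Erbb3 Chaf1b (r = 0.865) and Kif1c (r = 0.855). These are descriptions of 12 arrays, and the genes were the most alike of all named features.

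Ereg sits on mouse chromosome 5 in the order Cxcl15, Cxcl1, Cxcl2, Mthfd2l, Epgn, Ereg, Areg, Btc, Parm1, Rchy1, Odaph, Cdkl2 and Gm46915. Of its measured neighbours, Cxcl1, a neutrophil-attracting chemokine, rose in tumor by 1.415 ± 0.361 (SE, adjusted p = 0.0139 by limma). Parm1, a mucin-like membrane protein, rose by 0.688 ± 0.138 (SE, adjusted p = 0.00432). Cxcl2 (0.376) and Cdkl2 (0.19), read in the fit of every probe set, did not pass, with adjusted p values of 0.27 and 0.212. Between Ereg and Parm1, Btc was at a floor on 11 of 12 arrays and Areg was not analysed.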

How the data were processed

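The authors deposited 1 linear intensity per probe set and array, and the probe summary software was not given in the sources used here. After removal of 66 control probe sets, the deposited intensities of 12422 were quantile normalized across the 12 arrays, raised to the 20th percentile (44.8) where they fell under it, and put on the log2 scale. The dimmest 40% of probe sets by mean were dropped and each gene was read from its brightest probe set, which left 6400 features, 5648 of them named. The platform annotation gave 1 symbol to 10833 probe sets, several to 396 and none to 1193. By Entrez ID, 10817 matched RefSeq names of GRCm38.p6.

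Tissue differences were fitted in limma 3.58.1 (R 4.3.3) beside diet and genotype. The other comparisons took the code as a random block (correlation -0.16, or 0.04 for tissue by diet). Benjamini-Hochberg adjustment ran over all features, at a threshold of 0.05, and the number of arrays limits the precision. Codes were taken as pairs from the titles, and the primary tissue fit used no block. Arrays sharing a code correlated at 0.46 to 0.68 once tissue means were removed, but they also share diet and file format. With diet and genotype removed too, the correlations were -0.57 to -0.38, so these values do not establish a pairing. No arrays were duplicates (highest correlation within a tissue 0.982).

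Every member probe set was described, with the 3 largest called increases and decreases of each pathway list and the 2 genes most correlated with each tested member. Errfi1, Adam17, Dusp1, Dusp2, Dusp6, Spred2, Spry4, Myc, Cpa3, Retnlb and the chromosome 5 neighbours were named outside this rule, with values known. The members and lists were chosen with earlier results of these data known. Fits were tested on simulated data. Alternatives changed the scaling, floor, filter, probe set choice, variance model, block and arrays used.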

Additional observations from a re-analysis of the deposited data

Results flagged for a closer look

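The Tgfa level of the Dnmt+/- tumor of diet #1 stood apart from the other tumor arrays at 5.57 on the normalized log2 scale, with the nearest tumor array at 7.33 (gap over range 0.746, above Dixon's critical value for 6 samples). Its deposited value was 50, the file's floor, so the level is a bound. Of 10 groups examined in this way 1 was past the critical value, and chance gives about 1 in 20.

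The tumor minus normal difference of Egfr probe set 101840_at differed between diets by the tissue by diet term (adjusted p = 0.0239 by limma, every probe set and no filter). Both normal values of diet #1 were at the file's floor, and without the diet #1 arrays the adjusted p was 0.374.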

How the results depend on the processing

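Depth cannot be judged from these arrays, and signal near the file's floor limits Ereg in normal intestine, Tgfa and Egfr. Ereg kept its direction and its call in tumor under every alternative in which it was tested except within diet #1 (2.216, adjusted p = 0.181), where both normal values are bounds. With the lowest 60% of probe sets left out it was not tested, so 0 members passed, as within diet #1 (0). Of the members, 2 passed in place of 1 under median scaling, the deposited values and the 40th percentile floor. These were Ereg and Tgfa, where 37.4%, 32.6% and 37.5% of features passed. With every probe set 2 passed as well, Ereg and Egfr, where 33.5% of probe sets passed. Egfr passed there by 101840_at (adjusted p = 0.0154 by limma), while 101842_g_at did not (adjusted p = 0.453). Features higher in tumor were 13.2% under median scaling and 21.2% as deposited, in place of 18.2%. The median feature moved by -0.099 under median scaling and 0.132 as deposited. With the sample code as a fixed replicate block, Ereg passed (adjusted p = 0.00107), Egfr 101840_at and Shc1 did not (adjusted p of 0.0855 and 0.0766), and the block changed no call of the other tested members or of Adam9, Adam10, Nras, Akt1, Sos2, Phlda1, Plaur and Ccnd1. Causes of these changes were not tested, apart from fewer arrays or genes by construction.

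Features called for tissue numbered 1286 without diet #2 and 0, 1419 and 495 within diets #1, #2 and #3, in place of 2251. For genotype they numbered 0 as deposited, with no filter, without diet #1, within tumor and within normal intestine, and 1 with every probe set or with no replicate block, in place of 3. For diet #3 minus #2 they numbered 6 as deposited and 274 with no replicate block, in place of 594, and 1 member passed with the floor at the 40th percentile (Egfr, where 12.2% of features passed). For tissue by diet they numbered 206 as deposited, 208 with no filter, 37 with the lowest 60% left out and 35 without diet #1, in place of 95, and 1 member passed as deposited (Ereg, where 3.22% of features passed) and with every probe set (Egfr, where 1.34% did). For the 3 diets 5947 passed as deposited in place of 3961, and 2 members with the lowest 60% left out in place of 4, where 66.8% of features passed. The ERK genes called higher numbered 5 without diet #2 and 0 within diet #1, in place of 9.

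With each array left out, counts among 6400 features ranged from 0 to 2 for genotype, 150 to 921 for diet #3 minus #2 (0 to 1 members), 0 to 1 for tissue by genotype, and 49 to 313 for tissue by diet (0 to 2 members). Tissue differences ranged from 0.365 to 0.899 for Tgfa, 0.175 to 0.452 for Hbegf, 0.026 to 0.156 for Egfr and -0.019 to 0.168 for Erbb3, the Ereg genotype difference from -0.2 to 0.05, and the diet #3 minus #2 differences from -0.051 to 0.337 for Ereg, -0.01 to 0.358 for Hbegf and -0.452 to 0.032 for Tgfa. No value that passed a test changed sign. Signs turned for Hbegf within diet #3 (-0.109), Egfr within diet #1 (-0.024) and Erbb3 under median scaling (-0.226) and within diet #1 (-0.144) for tissue. They turned for Ereg under median scaling (0.016) and without diet #1 (0.029) and for Egfr within tumor (-0.065) for genotype, and for Ereg under median scaling (-0.073) and the 40th percentile floor (-0.291) for diet #3 minus #2.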
